A study of Mus musculus with 8 samples.

Results

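Blood is kept fluid inside vessels and clots where they are cut, and 9 mouse genes that act at this boundary were followed here through the cells of skeletal muscle. They are Vwf, Thbd, Procr, Tfpi, F3, F8, Plat, F2r and Pros1, found by their symbols in a deposited table of 36048 genes. Each symbol occurred there once. A test was run on the 16700 genes whose FPKM was 1 or more in 2 or more libraries, and all 9 were among them. FPKM is the number of sequenced fragments per kilobase of transcript, relative to the size of the library, so it can be compared between genes of different length.

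The 8 libraries held RNA of mouse muscle with no treatment, genotype, strain, sex or age given in the labels. Endothelial cells (EC, n = 3), which line the vessels, and satellite cells (SC, n = 2, numbered 1 and 3), the stem cells of muscle, were obtained from hindlimb muscles by flow cytometric sorting, with roughly 100000 cells pelleted for RNA. The antibodies of the sort are not given in the labels. Single muscle fibres (SMF, n = 3) came from 1 muscle, the extensor digitorum longus, and 100 intact fibres were chosen by hand after 3 h. Population, muscle of origin and way of isolation therefore cannot be told apart. Nothing states that replicates came from separate animals, so p-values cover only library-to-library spread, and part of it may be technical.

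The clotting system works as a balance. Tissue factor (F3) starts clotting with factor VII, factor VIII (F8) speeds the cascade as a cofactor, and von Willebrand factor (Vwf) carries factor VIII in plasma and tethers platelets to a torn wall. Against this, tissue factor pathway inhibitor (Tfpi) blocks the first step. Thrombomodulin (Thbd) turns thrombin into an activator of protein C, the endothelial protein C receptor (Procr) presents protein C to it, and protein S (Pros1) is the cofactor of activated protein C. Tissue plasminogen activator (Plat) starts the dissolving of fibrin, and F2r encodes PAR1, the receptor through which thrombin signals to cells. Endothelium is the classic source of von Willebrand factor and thrombomodulin, while tissue factor is held by the cells around the vessel.

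The DNA just before the start of a gene is shown first, since the results split these genes into some that were highest in EC and some that were highest in SC. RefSeq promoter sequences (GRCm38.p6, the assembly that mm10 names) were at hand for 6 of the genes, Procr, Tfpi, F3, F8, F2r and Pros1. In the 250 bases before each start, 6 short motifs were searched on both strands. The AP-1 letters TGACTCA, bound by Fos and Jun proteins, occurred before the starts of Procr, F3 and F2r, and in 4.46% of 32851 promoters of the table. The GATA letters occurred before Tfpi, F8 and Pros1, and in 53.6% of promoters. The F8 window of the table lies before a transcript that is listed at 0 in every library and not before the transcript that carries the F8 value, so it is not shown. The ETS core GGAA (93.4% of promoters) stood before all 6 genes, CACCC (52.0%) before Procr, Tfpi, F3, F2r and Pros1, and CACGTG (6.02%) before none of them. TATAAA (12.4%), added after the other motifs had been searched, occurred before Tfpi. None of the motifs contains another, but before F3 the AP-1 letters share their last bases with a CACCC. In the sequences that follow, written 5′ to 3′ on the strand of the gene and trimmed to bases outside any listed transcript, the capitals mark TGACTCA or its reverse complement TGAGTCA and, for Pros1 and Tfpi, GATA.
F2r (chr13:95618467-95618716, - strand): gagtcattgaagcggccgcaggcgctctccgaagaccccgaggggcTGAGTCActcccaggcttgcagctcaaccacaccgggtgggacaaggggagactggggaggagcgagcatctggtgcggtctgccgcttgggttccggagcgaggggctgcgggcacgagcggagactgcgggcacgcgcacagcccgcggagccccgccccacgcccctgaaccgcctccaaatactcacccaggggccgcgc
F3 (chr3:121723287-121723536, + strand): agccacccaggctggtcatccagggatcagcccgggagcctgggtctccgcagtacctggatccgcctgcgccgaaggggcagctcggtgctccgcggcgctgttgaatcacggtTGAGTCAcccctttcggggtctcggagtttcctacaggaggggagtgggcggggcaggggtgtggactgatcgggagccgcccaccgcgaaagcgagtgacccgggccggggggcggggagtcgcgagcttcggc
Procr (chr2:155750967-155751116, + strand): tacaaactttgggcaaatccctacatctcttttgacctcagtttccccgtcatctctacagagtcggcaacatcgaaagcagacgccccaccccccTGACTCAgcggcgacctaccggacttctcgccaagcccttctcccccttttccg
Pros1 (chr16:62854057-62854306, + strand): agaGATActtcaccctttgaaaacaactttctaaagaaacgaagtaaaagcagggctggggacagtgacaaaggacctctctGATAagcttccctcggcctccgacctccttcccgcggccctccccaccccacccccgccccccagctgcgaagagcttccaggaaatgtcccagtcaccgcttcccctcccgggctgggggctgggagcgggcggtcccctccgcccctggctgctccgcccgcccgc
Tfpi (chr2:84476776-84477009, - strand): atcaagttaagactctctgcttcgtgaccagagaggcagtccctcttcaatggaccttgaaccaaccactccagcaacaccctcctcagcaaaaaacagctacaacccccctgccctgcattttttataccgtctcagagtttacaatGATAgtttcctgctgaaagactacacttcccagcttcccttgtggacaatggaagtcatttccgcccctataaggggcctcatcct
The AP-1 letters begin 204 bases before the RefSeq start in F2r, 135 in F3 and 154 in Procr. F2r and F3 were highest in SC and Procr was highest in EC, so the genes that share these letters did not share an order of levels. A match of letters is a description of the sequence and not a site of binding.

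Before the results, the libraries were checked against cell type markers. All 12 endothelial markers, such as the junction gene Cdh5, were called higher in EC than in SC and in SMF by limma. Of all genes, 16.4% and 55.5% were. Several of the 12, such as Flt1, passed the filter on low values only through EC, so their calls support nothing. Cdh5 lay between 460 and 510 FPKM in EC and at no more than 4.08 in the other libraries. Pax7, the transcription factor of satellite cells, reached 93.6 and 118 FPKM in SC, while each EC library lists it at 0. Myh4, a fast myosin, lay between 7738 and 8700 FPKM in SMF and at no more than 5.81 in the other libraries. EC replicate 2 stood apart within its group. Markers of immune cells (5 of 5 whose EC mean was 1 FPKM or more), erythroid cells (5 of 5), pericytes and smooth muscle (9 of 10) and fibro-adipogenic progenitors (8 of 10) lay there below both other EC libraries, where 49.0% of all 13387 genes at that level did. Venous markers (6 of 7) lay above both, where 26.6% of all genes did. Values are therefore given for each EC library. Deposited coverage corresponds to 278 to 368 Mb aligned for each sorted library and 525 to 581 Mb for fibres. A lone fragment on 1 kb of transcript then counts for 0.272 to 0.360 FPKM in the former and 0.172 to 0.190 in the latter, and differences between values near these lie at the limit of detection. In a bulk library, fewer cells of a type and less RNA in each cell cannot be told apart.

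Across the set, EC held most of these transcripts, SC led for the thrombin receptor, and fibres held little except thrombomodulin and the protein C receptor. By mean FPKM the order in EC was Thbd (48.9), Vwf (44.7), Pros1 (25.9), Procr (15.0), F2r (10.9), Plat (9.13), Tfpi (2.84) and F8 (1.48), with F3 at no more than 0.379 in any library. Vwf overlapped in range with Thbd and Pros1, F2r with Plat and Tfpi with F8, so those neighbours did not differ beyond their spread. In SC the order was F2r (89.2), Plat (11.2), Pros1 (8.93), Thbd (3.96), Tfpi (2.80), Procr (1.10), F3 (1.13 and 1.02), Vwf (0.672) and F8 (0.198). Plat and Pros1 overlapped there, as did Procr, F3 and Vwf. In SMF, Thbd (7.73) and Procr (2.77) were followed by F2r (0.679), Plat (0.509), Pros1 (0.466), F3 (0 to 0.632), Tfpi (0.129), F8 (0.0689) and Vwf (0.0595), all of these below 1 FPKM in each library. From F2r down, each of these fibre levels overlapped with its neighbour.

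**Figure D1:**
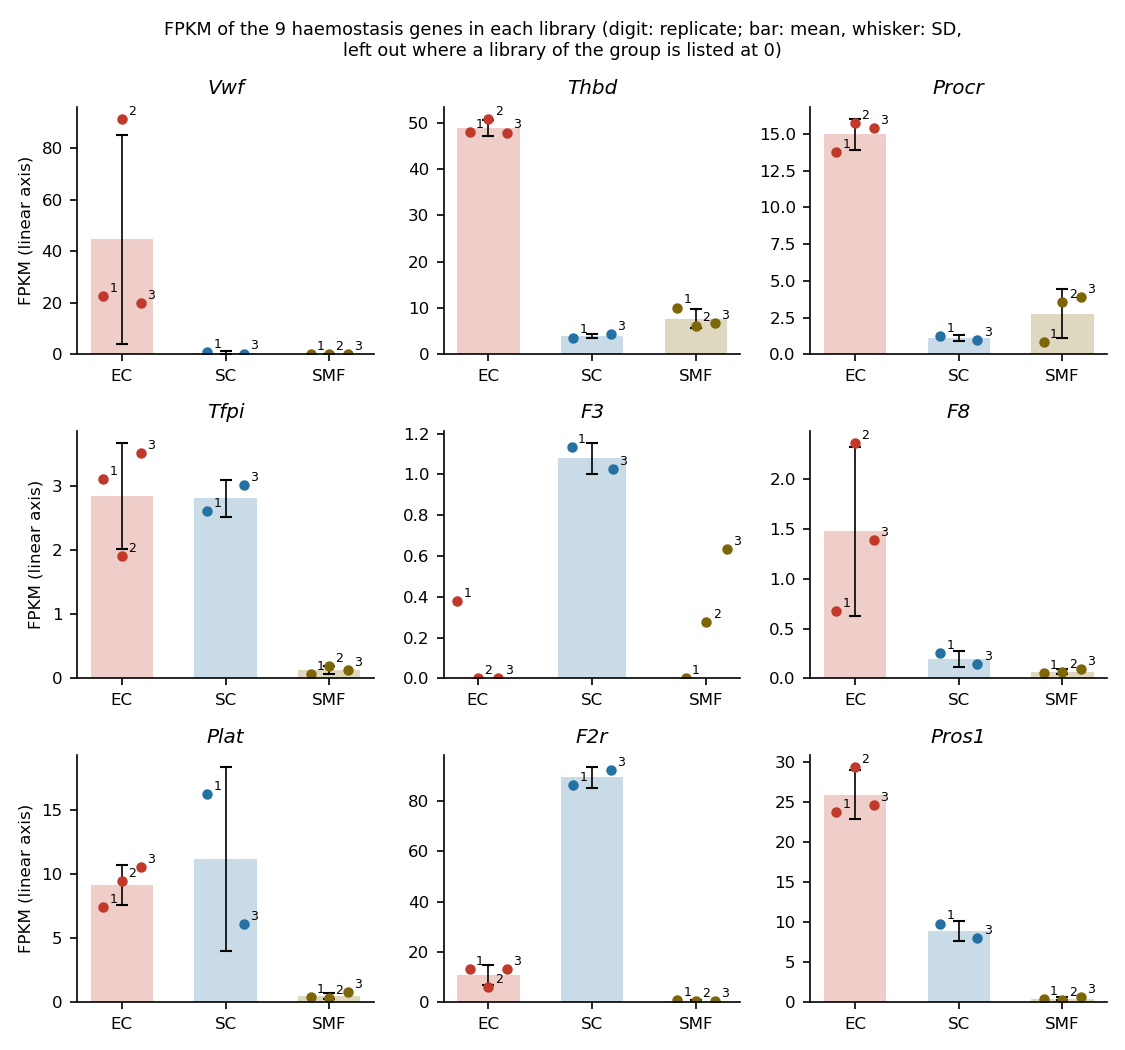
FPKM (linear axes that start at 0, with a scale of its own for each gene) of the 9 genes in 3 EC, 2 SC and 3 SMF libraries, where points are libraries with their replicate number, bars are means and whiskers are the SD, left out where a library is listed at 0. Vwf in EC replicate 2 (91.5) stands far above the other EC libraries, Thbd is tight in EC (47.9 to 50.8), and F2r is highest in SC (86.3 and 92.2).

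The question of the first comparison was which of these genes separate vessel lining from muscle stem cells. By limma, 5 of the 9 (Vwf, Thbd, Procr, F8 and Pros1) were called higher in EC than in SC, where 16.4% of all 16700 genes tested were, and 2 (F2r and F3) were called higher in SC, where 21.2% of all genes were. Tfpi and Plat were not called, and 37.7% of all genes were called in either direction. The median difference of the 9 genes was 0.99 on the scale of log2(FPKM + 1), the value of F8, against -0.11 over all genes. The values of EC and SC did not overlap for the 7 called genes, where 23.2% of all genes had EC above SC and 31.5% had SC above EC without overlap. Vwf and F8 passed the filter on low values only with EC libraries, and F3 only with SC libraries. Outside EC, Vwf reached 1 FPKM in SC replicate 1 alone, at 1.03. These genes had to be high in that population to be tested, so their part in the counts and in the median supports nothing. Calls on F3 and F8 are the least firm. F3 was called in 5 of 16 alternative analyses and F8 in 5 of 17.

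Against fibres, 8 of the 9 genes were called higher in EC, where 55.5% of all genes were, and F3 was not called. Vwf and F8 are among the 8 and passed the filter on low values only with EC libraries. Their part in this count and in the median difference supports nothing. In either direction 66.3% of all genes were called. By limma 0 of the 9 were called higher in SMF (0 also at an unadjusted p under 0.05), where 10.8% of all genes were. EC and SMF did not overlap for the same 8 genes, where 58.9% of all genes had EC above SMF without overlap. The median difference was 2.54 against 0.85 over all genes. This shift of all genes depends on the scaling. It was 0.20 under median-of-ratios scaling, 0.03 under upper-quartile scaling and 0.55 with the 50 most abundant genes of each population left out. The share of calls higher in EC moved from 83.7% to 56.6%, 48.3% and 72.8% under the same scalings. Relative to the median of all genes, the differences between EC and SMF were 4.23 for Vwf, 3.35 for Pros1, 1.90 for F2r, 1.89 for Plat, 1.69 for Thbd, 1.36 for Procr, 0.89 for Tfpi and 0.30 for F8. Of these calls, that of Procr was lost under median-of-ratios scaling (adjusted p = 0.0578) and upper-quartile scaling (adjusted p = 0.146), and that of F8 in the test against a log2 difference of 1.

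Between SC and SMF, 5 genes (Tfpi, F3, Plat, F2r and Pros1) were called higher in SC, a number close to the background of 56.5% of all genes, and Thbd was called higher in SMF, where 8.57% of all genes were. Vwf, Procr and F8 were not called, and 65.1% of all genes were called in either direction. Of the 5 higher in SC, F3 passed the filter on low values only with SC libraries, so its part in the count and in the median supports nothing. The median difference was 0.70, the value of F3, below the 0.93 of all genes. The latter was 0.21, 0.13 and 0.44 under the 3 other scalings. The share of calls higher in SC moved from 86.8% to 55.1%, 49.6% and 69.2%. Without overlap, 7 genes had SC above SMF, where 67.0% of all genes did, and 1 had SMF above SC, where 10.8% of all genes did. The 3 comparisons share their libraries and do not support each other. Of the 21 calls on these genes, 14 were also made in all 17 alternative analyses.

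**Figure D2:**
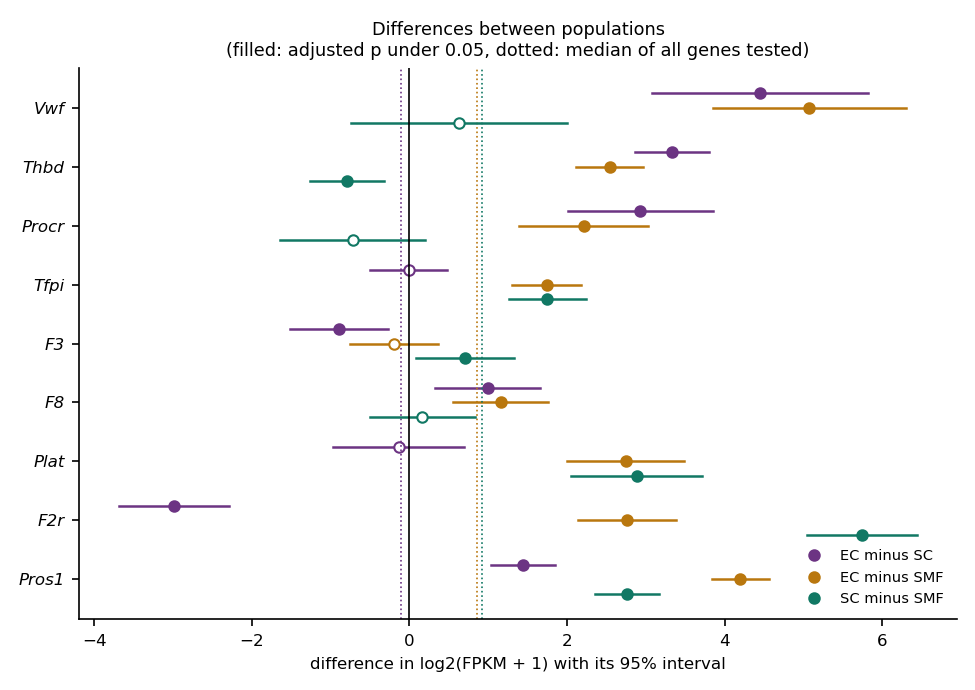
Differences in log2(FPKM + 1) between populations for the 9 genes (x axis, log2 units) with 95% intervals from limma, filled where the adjusted p was under 0.05 over all 16700 genes, and dotted lines at the median of all genes for each comparison. F2r lies at -2.99 for EC minus SC and at 5.75 for SC minus SMF, while Vwf and Pros1 lie at 5.08 and 4.20 for EC minus SMF.

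Von Willebrand factor and its cargo come first. Vwf (chromosome 6, 125552948 to 125686679, here and throughout in GRCm38) stood at 22.6, 91.5 and 20.0 FPKM in EC replicates 1 to 3, at 1.03 and 0.316 in SC replicates 1 and 3, and at 0.0214, 0.0652 and 0.0919 in SMF. Every EC library was far above every other library, and EC replicate 2 held 4.29 times the mean of the other EC libraries. The mean was 44.7 ± 40.5 (SD, n = 3) in EC, 0.672 ± 0.504 (n = 2) in SC and 0.0595 ± 0.0356 (n = 3) in SMF. EC exceeded SC by a log2 of 4.45 (SE 0.59, limma adjusted p = 0.000799) and SMF by 5.08 (SE 0.53, adjusted p = 7.49e-05). Without EC replicate 2 the differences were 3.77 and 4.39, with smaller adjusted p-values of 5.74e-05 and 7.33e-06. SC and SMF differed by 0.63 (95% interval -0.74 to 1.99, adjusted p = 0.375), although their values did not overlap. That difference was called with a pseudocount of 0.1, without EC replicate 2 and with only these populations in the fit.

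F8 (chromosome X, 75170344 to 75382738), the clotting cofactor that Vwf carries, was far less abundant, at 0.674, 2.37 and 1.39 FPKM in EC, 0.255 and 0.142 in SC and 0.0509, 0.0615 and 0.0943 in SMF. All EC values lay above all others, and EC replicate 2 was again highest, at 2.29 times the mean of the other EC libraries. The means were 1.48 ± 0.851 in EC, 0.198 ± 0.0798 in SC and 0.0689 ± 0.0227 in SMF. F8 in EC exceeded SC by 0.99 (SE 0.29, adjusted p = 0.0288) and SMF by 1.16 (SE 0.26, adjusted p = 0.00467). The lead over SC was not called, for example, without EC replicate 3 (adjusted p = 0.0605), without either SC library (0.0806 and 0.116) or in the fit with only EC and SC (0.0883). Depth limits F8: about 20.9, 85.3 and 40.6 fragments lay on its only listed transcript above 0 in the EC libraries, counting 100 aligned bases for each fragment, and 2.89 to 7.80 in the others. F8 also overlaps the neighbouring gene Fundc2 at its start and 2 pseudogenes in the RefSeq annotation, while the other 8 genes overlap no annotated gene.

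In the deposited values, the genes of the anticoagulant protein C pathway (Thbd, Procr and Pros1) varied least between EC libraries. For Pros1 this depends on the scaling. Under median-of-ratios scaling its SD of log2(FPKM + 1) in EC was 0.267, against 0.221 for Tfpi and 0.236 for Plat. With the 50 most abundant genes left out it was 0.307, against 0.243 for Tfpi. Thbd (chromosome 2, 148404471 to 148408188), which binds thrombin on the endothelial surface, stood at 48.0, 50.8 and 47.9 FPKM in EC, at 3.62 and 4.30 in SC and at 10.1, 6.23 and 6.84 in SMF. The groups did not overlap, and fibres held more than satellite cells. The mean was 48.9 ± 1.68 in EC, 3.96 ± 0.477 in SC and 7.73 ± 2.09 in SMF. EC exceeded SC by 3.33 (SE 0.20, adjusted p = 1.39e-05) and SMF by 2.54 (SE 0.18, adjusted p = 9.79e-06). SMF exceeded SC, with a log2 difference SC minus SMF of -0.79 (SE 0.20, adjusted p = 0.00986), and relative to the median of all genes of -1.72. This call was lost without SC replicate 1 (adjusted p = 0.0591), in the deposited TPM values (0.0770) and in the test against a log2 difference of 1. Thbd has 1 transcript in the deposited table, on which about 219, 132 and 134 fragments lay in the SMF libraries, so the fibre level was well above the limit of counting.

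Procr (chromosome 2, 155751125 to 155755478), the receptor that hands protein C to thrombomodulin, stood at 13.8, 15.8 and 15.4 FPKM in EC, 1.24 and 0.953 in SC and 0.834, 3.56 and 3.90 in SMF. EC values lay above all others, while SMF replicate 1 lay below both SC libraries and the other SMF libraries above them. The mean was 15.0 ± 1.06 in EC, 1.10 ± 0.201 in SC and 2.77 ± 1.68 in SMF. EC exceeded SC by 2.93 (SE 0.39, adjusted p = 0.00088) and SMF by 2.21 (SE 0.35, adjusted p = 0.00083). The difference SC minus SMF was -0.72 (95% interval -1.64 to 0.20, adjusted p = 0.144), and it was called at -1.18 without SMF replicate 1 (adjusted p = 0.00119) and under the 3 other scalings. Fibro-adipogenic progenitor markers mostly moved with Procr across the fibre libraries. Of 9 with an SMF mean of at least 1 FPKM, 7 were lowest in SMF replicate 1, where 32.1% of all genes were. The other 2 were highest there. The summed FPKM of all 11 markers of that list was 43.6, 110.5 and 100.9 in replicates 1 to 3. Of 4 erythroid markers at that level, 3 were lowest in SMF replicate 1, and the list had sums of 11.6, 52.7 and 34.5. The part of such cells in the Procr level was not tested.

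Pros1 (chromosome 16, 62854307 to 62929346), the protein S gene, stood at 23.7, 29.4 and 24.6 FPKM in EC, 9.83 and 8.03 in SC and 0.456, 0.302 and 0.639 in SMF. The 3 populations formed separate steps with no overlap. The mean was 25.9 ± 3.05 in EC, 8.93 ± 1.27 in SC and 0.466 ± 0.169 in SMF. EC exceeded SC by 1.44 (SE 0.17, adjusted p = 0.000496), and this call was lost only in the test against a log2 difference of 1 (adjusted p = 0.151). Pros1 in EC exceeded SMF by 4.20 (SE 0.16, adjusted p = 3.73e-07) and in SC by 2.76 (SE 0.17, adjusted p = 9.64e-06). Unlike Thbd and Procr, which were lower in SC than in SMF or not called, Pros1 in SC lay above all fibre libraries.

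The gene that starts clotting and its inhibitor were both low. F3 (chromosome 3, 121723537 to 121735052), tissue factor, was listed at 0.379, 0 and 0 FPKM in EC, at 1.13 and 1.02 in SC and at 0, 0.278 and 0.632 in SMF. Both SC libraries lay above all others, and EC and SMF overlapped. Since listed zeros can be failed estimates, no mean is given for EC or SMF. The log2 difference EC minus SC was -0.90 (SE 0.27, adjusted p = 0.0315) and SC minus SMF was 0.70 (SE 0.27, adjusted p = 0.0487). Without EC replicate 2 or 3, without either SC library and without SMF replicate 2 the difference EC minus SC was not called (adjusted p from 0.0591 to 0.0999). F3 was called higher in SC than in SMF in 4 of 16 alternatives, and the difference was 0.17 and 0.11 under median-of-ratios and upper-quartile scaling. The EC value above 0 is about that of a lone fragment on 1 kb of transcript.

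Tfpi (chromosome 2, 84432855 to 84476775), the inhibitor of tissue factor and factor VIIa, stood at 3.10, 1.91 and 3.50 FPKM in EC, 2.60 and 3.01 in SC and 0.0631, 0.189 and 0.136 in SMF. EC and SC overlapped, and both lay above all fibre libraries. The mean was 2.84 ± 0.830 in EC, 2.80 ± 0.288 in SC and 0.129 ± 0.0633 in SMF. The difference EC minus SC was -0.01, with a 95% interval of -0.50 to 0.48 (adjusted p = 0.979), so differences within that interval cannot be told from 0 here. EC exceeded SMF by 1.74 (SE 0.19, adjusted p = 9.27e-05) and SC exceeded SMF by 1.75 (SE 0.21, adjusted p = 0.0002). Both calls were made in all 17 alternatives, although the SMF values correspond to only a few fragments in each library.

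Plat (chromosome 8, 22757722 to 22782848), which turns plasminogen into plasmin, stood at 7.43, 9.45 and 10.5 FPKM in EC, 16.2 and 6.10 in SC and 0.435, 0.310 and 0.782 in SMF. The SC libraries lay on either side of all EC libraries. The mean was 9.13 ± 1.57 in EC, 11.2 ± 7.16 in SC and 0.509 ± 0.245 in SMF. EC minus SC was -0.14 (95% interval -0.97 to 0.69, adjusted p = 0.797), and 0.50 without SC replicate 1. EC exceeded SMF by 2.75 (SE 0.32, adjusted p = 0.000142), and SC exceeded SMF by 2.89 (SE 0.36, adjusted p = 0.000239).

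F2r (chromosome 13, 95601780 to 95618466), the thrombin receptor gene, was the member with the highest value in SC. It stood at 86.3 and 92.2 FPKM in SC, at 13.3, 6.14 and 13.2 in EC and at 0.790, 0.627 and 0.620 in SMF. The 3 populations did not overlap, and EC replicate 2 was the lowest of the EC libraries. The mean was 89.2 ± 4.18 in SC, 10.9 ± 4.12 in EC and 0.679 ± 0.0959 in SMF. F2r in EC minus SC was -2.99 (SE 0.30, adjusted p = 0.000184), F2r in SC minus SMF was 5.75 (SE 0.30, adjusted p = 4.54e-06) and in EC minus SMF 2.76 (SE 0.27, adjusted p = 5.17e-05). All 3 calls were made in all 17 alternatives, with EC minus SC between -3.16 and -2.62. About 893 and 847 fragments lay on its 1 listed transcript in SC, against 74.7 to 140 in EC and 10.8 to 15.2 in SMF. The deposited TPM values gave the same order, with 56.8 and 75.7 in SC, 8.48, 4.72 and 9.77 in EC and 0.570, 0.432 and 0.366 in SMF.

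The authors' deposited table carries a specificity score for each population, whose formula is not given in the sources used here. In the authors' deposited table the EC score was 1.51 for Vwf, 0.763 for Thbd, 0.664 for Procr, 0.401 for Pros1 and 0.263 for F8. The SC score in the authors' deposited table was 0.890 for F2r, 0.237 for F3 and 0.168 for Plat. For Tfpi the authors' deposited table gives 0.0316 for EC and 0.0264 for SC, close to each other like its FPKM.

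Within EC, the genes did not move together between libraries. Replicate 2 minus the mean of replicates 1 and 3 on the log2(FPKM + 1) scale was 2.05 for Vwf, above 99.6% of the 13387 genes whose EC mean was 1 FPKM or more. It was 0.75 for F8 (above 94.2%), 0.27 for Pros1, 0.11 for Procr and 0.08 for Plat and Thbd, against a median of -0.13 over all these genes. Tfpi at -0.56 and F2r at -0.999 (above 19.5% and 8.8% of genes) lay on the other side. Under median-of-ratios scaling and with the most abundant genes left out, Vwf was at 2.23 and 2.29 and F2r at -0.79 and -0.77. These are descriptions of 1 library and were not tested.

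**Figure D3:**
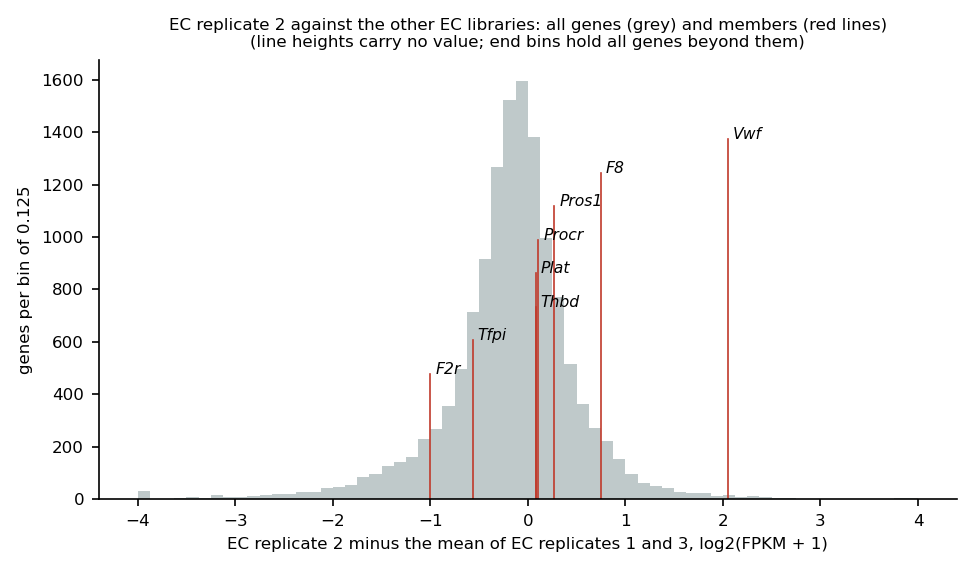
Difference of EC replicate 2 from the mean of EC replicates 1 and 3 in log2(FPKM + 1) (x axis) for 13387 genes (grey, genes per bin on the y axis), with red lines at 8 of the haemostasis genes, F3 being left out because it is listed at 0 in EC libraries. Vwf at 2.05 lies in the far right tail, F8 at 0.75 to the right, and F2r at -0.999 to the left.

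The markers that moved with Vwf and F2r in this library are given as measured. Of the venous markers with the highest means, Selp, the P-selectin gene, stood at 39.2, 91.4 and 30.9 FPKM. Ephb4, the venous ephrin receptor, was nearly level at 43.9, 44.6 and 41.4, and Aplnr, the apelin receptor, was lower in replicate 2 at 38.7, 27.6 and 43.0. Chosen after their values were seen, Ackr1, a chemokine-binding receptor of venules, stood at 7.40, 28.0 and 7.70, and Nr2f2, a transcription factor of venous identity, at 6.94, 17.8 and 13.4. The median over 7 venous markers was 0.81, against -0.12 over 8 arterial, -0.30 over 9 capillary and 0.46 over 6 lymphatic markers. General endothelial markers lay on either side, 4 above and 5 below both other libraries, with a median of -0.03 over 12. Pericyte and smooth muscle markers had a median of -1.49 (summed FPKM 625, 305 and 756) and immune markers of -1.71 (58.1, 10.2 and 78.4). Platelet markers, whose cells also hold von Willebrand factor, summed to 6.98, 4.49 and 6.26 FPKM over 10 genes. Of 3 with an EC mean of 1 FPKM or more, Gp9 was highest in replicate 2, at 0.675, 1.35 and 1.30. Gp1ba (1.38, 1.08 and 1.07) and Pf4 (3.36, 0.547 and 0) lay there between the other EC libraries. Ppbp was listed at 0.858, 0 and 0. The part of vessel type and of other cells in the Vwf and F2r values was not tested.

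The mean level in SC and SMF was also set against that in EC, for these genes and for general endothelial markers. Over 12 endothelial markers, the SC level was 0.280% (Kdr) to 4.53% (Eng) of that in EC with a median of 0.785%, apart from Tek at 12.4%. Vwf in SC lay inside this range at 1.505%. Procr (7.32%) and Thbd (8.10%) lay above all these markers other than Tek, and F8 (13.4%), Pros1 (34.5%), Tfpi (98.9%), Plat (122%) and F2r (819%) lay above all of them. In SMF the markers lay at 0.0127% (Tie1) to 1.27% (Cldn5) of the EC level, with a median of 0.280%. Vwf at 0.133% was inside this range, while Pros1 (1.80%), Tfpi (4.56%), F8 (4.66%), Plat (5.57%), F2r (6.23%), Thbd (15.8%) and Procr (18.5%) were above it. In the other direction, 10 satellite cell markers were set against their SC level, and F2r stood in EC at 12.2% of its own. Vcam1 (38.9%) and Cxcr4 (61.1%), which endothelium also makes, lay above F2r, and the other 8 lay between 0% and 11.1%, with Itga7 highest and Sdc4 next at 0.637%. These shares describe means over few libraries, and the smallest rest on values near the limit of detection. The SMF shares of F8 and Tfpi also rest on few fragments, 2.89 to 4.85 and 1.99 to 5.86 in each fibre library. Their EC means are low as well (1.48 and 2.84 FPKM).

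**Figure D4:**
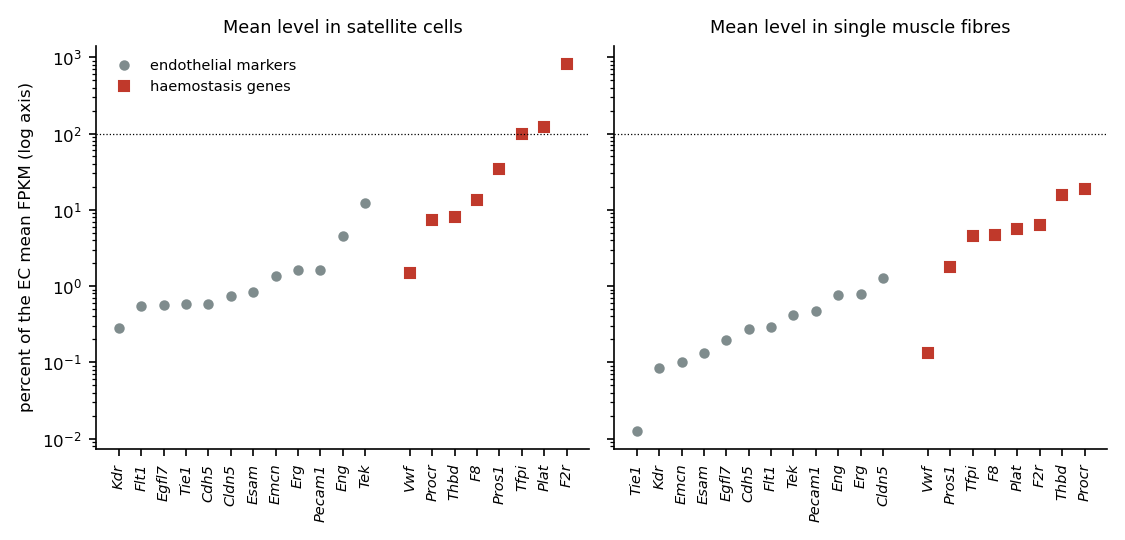
Mean FPKM in SC (left) and SMF (right) as a percent of the mean in EC (log axis, dotted line at equal levels), for 12 endothelial markers (grey circles) and 8 haemostasis genes (red squares), F3 being left out. In SMF all the haemostasis genes but Vwf lie above the highest marker, Cldn5 at 1.27%, with Thbd at 15.8% and Procr at 18.5%. The SMF points of F8 and Tfpi rest on only a few fragments in each library.

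The deposited transcripts show what the gene values rest on. For Thbd, Plat, F2r and F8 the gene value equals that of a lone transcript with a value above 0. For Procr, Tfpi and Pros1, the fragments of the listed transcripts spread over a fixed length of 2031, 5432 and 4030 bases give the gene value in every library. For Vwf and F3 the listed transcripts do not account for the gene value, and no shares of transcripts are given.

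The genes with the most similar profiles over the 8 libraries were sought among 6505 genes with a group mean of at least 5 FPKM, by Pearson r of log2(FPKM + 1). The 8 points fall into the 3 populations for every gene, and r is given as a description with no test. Vwf was closest to H2-Q5 and Il13ra1 (r = 0.9977 and 0.9976), which share its high value in EC replicate 2. F8 was closest to Nr2f2, the venous transcription factor gene (0.9762), and to Ehd4, an endocytic trafficking gene (0.976), which share it too. Thbd was closest to the tetraspanin gene Tspan9 (0.996) and to Afap1l1 (0.9927), Procr to Cxx1a (0.9689) and Tppp (0.9632), and Pros1 to Tnfsfm13 (0.9986) and Ccdc82 (0.9982). Tfpi was closest to Tusc3 (0.9992) and Nisch (0.9983), and Plat to the growth factor gene Igf2 (0.989) and to Emp1 (0.9881). F2r was closest to Pum3 (0.9985) and to Smo, the Hedgehog signal transducer (0.9977), and F3 to the mitochondrial genes Mrpl49 (0.9685) and Tfam (0.9484). For F3, the listed zeros of EC replicates 2 and 3 and SMF replicate 1 entered r as they stand, though they can be failed estimates.

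Other haemostasis genes were placed in 7 lists of 70 genes, of which 63 were in the table and 46 were tested. By limma, 16 were called higher in EC than in SC (16.4% of all genes were), 10 higher in SC (21.2% of all genes, about the share seen here) and 20 not called, with a median of 0.14 against -0.11 over all genes. Against fibres, 36 were called higher in EC (55.5% of all genes), 3 higher in SMF (10.8%) and 7 not called, with a median of 1.94 against 0.85. Between SC and SMF the counts were 31 higher in SC (56.5% of all genes), 2 higher in SMF (8.57%) and 13 not called, with a median of 1.21 against 0.93. The 10 genes higher in SC than in EC were 5 or 6 under the 3 other scalings, and 6 without SC replicate 1 or SC replicate 3. Several of the genes named next passed the filter on low values through 1 population alone, in which they had to be high. These were Mmrn1, Nos3, Ptgs1, F2rl1 and Hs3st1 through EC, and F2rl2, Tfpi2 and Ptgis through SC, while Ptgs2 passed only with SMF libraries. Their values are descriptions and their calls support nothing.

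Partners of von Willebrand factor in the endothelial storage granule mostly shared the order of Vwf. Of 10 tested genes of storage and cleavage, 9 were called higher in EC than in SC (16.4% of all genes were) and 1 lower (21.2%), with a median of 2.14. The 9 include genes that passed the filter on low values through EC alone, such as Mmrn1, and the count is a description. Selp, the P-selectin that shares the granule, stood at 53.8 ± 32.8 FPKM in EC and 1.95 ± 1.14 in SC (log2 4.11, adjusted p = 0.000429). Mmrn2, a multimerin of the endothelial matrix, stood at 138 ± 42.2 against 2.23 ± 0.187 (log2 5.39, adjusted p = 2.65e-06). Mmrn1, its relative, stood at 24.6, 53.0 and 28.6 against 0 and 0.179 (log2 4.99). The exception was Cd63, a membrane protein of granules and lysosomes in many cells, with 116 ± 4.57 in SC, 19.8 ± 0.943 in SMF and 4.10 ± 0.945 in EC (EC minus SC -4.53, adjusted p = 2.19e-06). Against SMF the list gave the same counts, with 9 higher in EC (55.5% of all genes were) and Cd63 lower (10.8%). Adamts13, the protease that trims von Willebrand factor, was not tested, being listed at 0 in 7 libraries and 0.208 in the other.

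Fibrinolysis genes beside Plat were called toward SC or not at all. Of 8 tested, 0 were called higher in EC than in SC by limma (0 also at an unadjusted p under 0.05), where 16.4% of all genes were, 4 were called higher in SC, where 21.2% of all genes were, and 4 had no call (median -0.54). Plau, the urokinase gene, stood at 48.4 ± 2.70 FPKM in SC, 6.52 ± 1.45 in EC and 6.46 ± 1.78 in SMF (EC minus SC -2.73, adjusted p = 0.00013). Plat, the other activator, differed from Plau in that its EC and SC libraries overlapped. S100a10 and Anxa2, whose products together bind plasminogen and its activator at the cell surface, differed by -0.85 and -0.47 (adjusted p = 0.0495 and 0.0335). Serpine2, an inhibitor of thrombin and plasminogen activators, was higher in SMF (6.20 ± 0.354) than in EC (1.55 ± 0.496) and SC (2.31 ± 0.101), with log2 differences of -1.52 and -1.12 (adjusted p = 0.000113 and 0.00122).

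Other thrombin and protease receptors and their partners gave counts near the background. Of 8 tested, 2 were higher in EC than in SC (16.4% of all genes were), 2 higher in SC (21.2%), and the other 4 had no call (median 0.10). F2rl2, the receptor PAR3, stood at 1.80 and 2.77 FPKM in SC and at 0, 0 and 0.399 in EC. F2rl1, the receptor PAR2, stood at 1.04, 3.96 and 1.62 in EC against 0 and 0.391 in SC. F2rl3, the receptor PAR4, stood at 2.30, 0.987 and 0.938 in EC and at 0 in both SC libraries, and did not pass the filter. The G protein genes Gnaq (16.9 ± 2.45 in EC, 10.3 ± 0.223 in SC) and Gna13 (10.0 ± 0.360 and 16.2 ± 2.87) differed by 0.66 and -0.63 (adjusted p = 0.0142 and 0.0191).

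Further anticoagulants, the vitamin K cycle and platelet inhibitors completed the lists. Between EC and SC, 16.4% of all genes were called higher in EC and 21.2% higher in SC. Of 5 other anticoagulants, Hs3st1, the sulfotransferase that makes heparan sulfate bind antithrombin, was called higher in EC at 4.24, 12.5 and 6.61 FPKM against 0 and 0 in SC. Tfpi2, a relative of Tfpi, was the gene called higher in SC, at 1.98 and 1.47 against 0.408, 0 and 0.652 in EC. Gas6, the relative of protein S, stood at 35.8 ± 1.55 in EC and 32.9 ± 2.65 in SC and was not called (log2 0.12, adjusted p = 0.666), unlike Pros1, and both exceeded their level in SMF. Of 7 genes of the vitamin K cycle and factor secretion, 1 was called between EC and SC: Lman1, the cargo receptor for factor VIII, at 8.93 ± 0.814 in EC and 13.9 ± 2.33 in SC (log2 -0.58, adjusted p = 0.0284), opposite to F8. Of 7 vascular platelet inhibitors, Pecam1, Entpd1, Nos3 and Ptgs1 were higher in EC and Ptgis, the prostacyclin synthase gene, higher in SC. Nos3, Ptgs1 and Ptgis passed the filter on low values through 1 population alone. Nos3, the endothelial nitric oxide synthase, stood at 20.2, 22.1 and 19.5 in EC and 0 and 0.0739 in SC. Ptgs2 was the member of that list higher in SMF, at 3.45 ± 2.28 against 0.678 ± 0.425 in EC (log2 -1.29, adjusted p = 0.0203). Among 12 genes of circulating clotting factors, 1 was tested (F13a1, the A subunit of factor XIII), and it was not called.

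**Figure D5:**
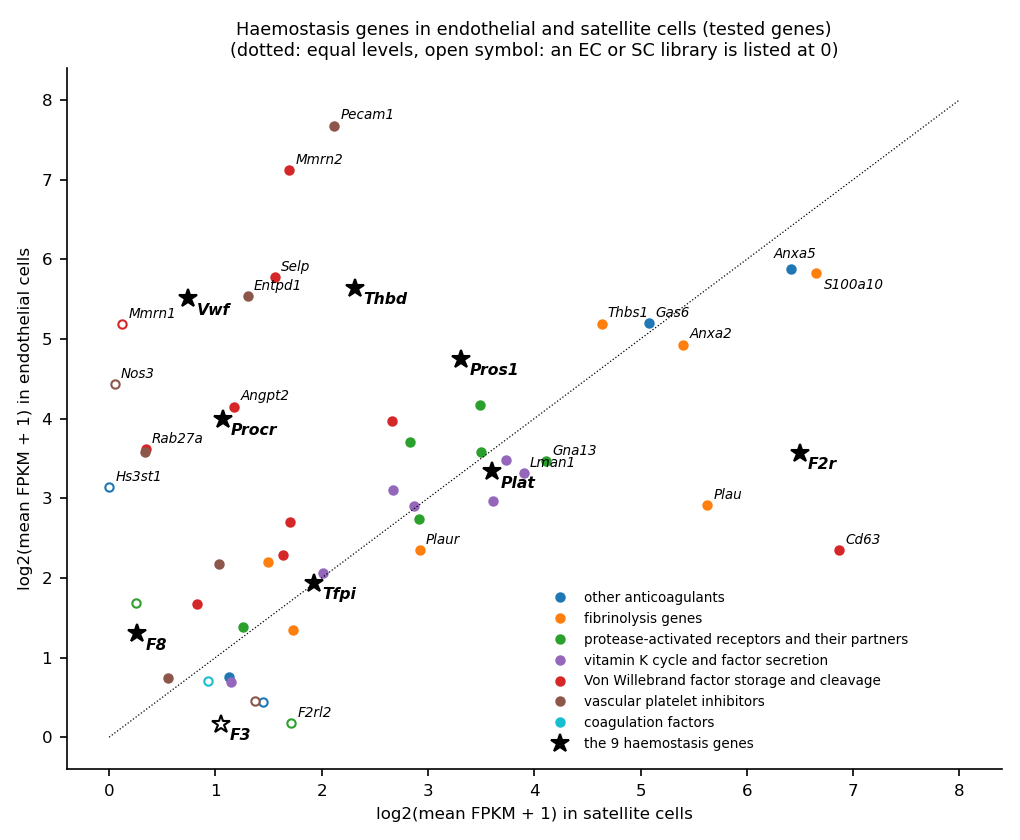
Mean levels in SC (x axis) and EC (y axis), both as log2(mean FPKM + 1), of 45 of the 46 tested genes of the 7 lists (coloured circles) and of the 9 haemostasis genes (stars), with a dotted line at equal levels and open symbols where a library is listed at 0. Vwf lies beside Selp and Entpd1 on the EC side, F2r beside Plau and Cd63 on the SC side, and Plat and Tfpi near the line.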

How the data were processed

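RNA of 8 libraries was sequenced as pairs of 50 bp reads with a randomly primed, strand-keeping kit and 10 ng of input RNA, per the labels' protocols. The labels say that 1 sample, not named, missed the RNA quality of the others. Per the submitters' processing notes, FastQC, Trimmomatic, HISAT2, StringTie and bedtools were used with the build mm10. Versions, settings and the use of strand in counting: not given in the sources used here.

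The gene table holds FPKM for 36048 genes, per the file headers. A second deposited table holds TPM for 46435 loci with the authors' mean TPM and specificity score, and another deposited table holds transcript FPKM and coverage, from which depth was computed.

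Differences were tested with limma 3.58.1 (R 4.3.3, mean-variance trend, two-sided) on log2(FPKM + 1), a scale that understates changes of low genes, in 1 fit of all 8 libraries without covariates. The test ran on 16700 genes with FPKM of 1 or more in 2 or more libraries, and a call needed a p under 0.05 after Benjamini-Hochberg adjustment over all of them. All adjusted p-values are from limma. The calculation was tested on simulated data. There were 17 alternatives. Same-numbered libraries did not deviate together (correlations of deviations from -0.058 to 0.091), which cannot decide whether the numbers pair them. The tables used here hold no read counts, so no intervals for counting error are given, and the number of fragments was estimated at 100 aligned bases for each.

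The genes, lists, motifs and tests were chosen with earlier results of these data known. Named were all 9 genes, up to 3 tested genes of each list called in the direction of most calls and 1 in the other by mean level, up to 3 per marker list, and 2 most alike genes per member. F2rl2, F2rl3, Fundc2, Adamts13, Tek, Eng, Kdr, Tie1, Cldn5, Itga7, Vcam1, Cxcr4, Ackr1, Nr2f2, Ppbp, Ptgs1 and F13a1 were named after their values were seen. The values of 1 gene of the wider lists are not reported here.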

Additional observations from a re-analysis of the deposited data

How the results depend on the processing

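Of 21 calls on the haemostasis genes, 14 were made in all 17 alternatives and 7 were lost in at least 1: F3 (EC against SC, SC against SMF), F8 (EC against SC, EC against SMF), Procr (EC against SMF), Thbd (SC against SMF) and Pros1 (EC against SC). The cause was not tested. Signs turned for differences that were not called. EC minus SC of Tfpi was 0.11 under median-of-ratios scaling, 0.0178 under upper-quartile scaling, 0.23 without the 50 most abundant genes, 0.14 in the TPM table, 0.18 without EC replicate 2 and 0.07 without SC replicate 3, with -0.14 to 0.18 over all libraries left out. For Plat it was 0.011 under median-of-ratios scaling, 0.19 without the 50 most abundant genes and 0.50 without SC replicate 1, with -0.78 to 0.50 over all libraries left out. SC minus SMF of F8 was -0.0033 under median-of-ratios scaling and -0.0249 under upper-quartile scaling.

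The 2 genes called higher in SC than in EC became 1 with a pseudocount of 0.1, under the 3 scalings and in the test against a log2 difference of 1. The latter also left 3 of 5 higher in EC. In the TPM table the count was 1 as well, but F3 did not pass the filter there and was not tested. Leaving out each library gave 1 to 2. For genes higher in SMF than in SC the count of 1 became 2 under the 3 scalings and 0 in the TPM table and in the test against a log2 difference of 1, and 0 to 2 without each library. In the wider lists, the 10 genes higher in SC than in EC became 5 without the most abundant genes and under median-of-ratios scaling, 6 under upper-quartile scaling, with a pseudocount of 0.1, in the TPM table and with only both populations fitted, 3 against a log2 difference of 1, and 6 to 10 without each library. That test left 10 of 16 higher in EC, and 16 of 31 higher in SC and 0 of 2 higher in SMF between SC and SMF. Upper-quartile scaling left 20 of those 31. The 3 genes higher in SMF than in EC became 6 under median-of-ratios and upper-quartile scaling. The 2 higher in SMF than in SC became 1 with only both populations fitted, and 1 to 2 without each library.

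Same-numbered libraries did not deviate together, but this cannot decide whether the numbers pair them. With the replicate number as a block, 1 gene in place of 2 was higher in SC than in EC (F3 was lost), 4 in place of 5 were higher in EC (F8 was lost), 4 in place of 5 were higher in SC than in SMF (F3 was lost), and EC minus SC of Tfpi was 0.0644.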
